A study of Homo sapiens with 6 samples.

Results

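LINC-named loci are genes whose symbol begins with LINC and a digit, the naming scheme for long noncoding RNAs (lncRNAs) that lie between protein-coding genes. The 72 loci described here were chosen by name and by level. Each carries a LINC symbol with no other gene symbol beside it than LINC or clone-based names, and was selected on a mean of at least 1 FPKM over 6 libraries, where FPKM counts fragments against transcript length and library size. They are 72 of 12838 loci at that mean and of 62828 loci in the table. By name alone there were 544 LINC loci, of which 277 were at 0 in all 6 libraries and 195 were detected with a mean below 1 FPKM. The level at which members are listed is therefore set by the selection. Ratios between libraries were not used to choose members, but the mean is over the same libraries. The selection is thus not independent of the ratios, and 7 members passed only through their highest library.

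The libraries are of K562 cells, an established chronic myelogenous leukemia line. Knockdown cells were transfected with siRNA (300 nM) against HNRNPU, and the comparison cells with control oligos. After HNRNPU knockdown and in control, RNA came from whole cells, nuclei and cytosol and was depleted of ribosomal RNA, so the 6 groups hold 1 library each. No difference below has a replicate check, no p-value is given, and sizes are described by a 2-fold rule and by an estimate of counting error. The study's title concerns the part of HNRNPU in the nuclear localization of lncRNAs.

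HNRNPU, also called scaffold attachment factor A, is an abundant nuclear protein that binds RNA and chromatin and is known for tethering the XIST RNA to the inactive X chromosome. lncRNAs are transcribed and often spliced like messenger RNAs. Some stay at the chromatin or in nuclear bodies, and others are exported and act in the cytosol, where they bind proteins or microRNAs. Several genes first named as LINC were later found to encode small proteins.

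HNRNPU itself had 55.3 FPKM after knockdown and 129 FPKM in control whole-cell RNA, which leaves 43.0%, with 39.0% left in nuclear and 22.1% in cytosolic RNA. The nuclear RNA MALAT1 had log2 ratios of nuclear to cytosolic RNA of 4.47 after knockdown and 3.82 in control, and the exported RNA GAS5 had -1.70 and -1.83. All 7 erythroid and leukemia markers of K562 were found, the lowest value being 7.80 FPKM. Of markers of other cell types, KRT5 was at 0 and ALB at most 0.0588 FPKM, while the leukocyte gene PTPRC had 22.3 to 61.7 FPKM and the T cell gene CD3E 0.915 to 2.12 FPKM. The part of other cells in the results was not tested. In bulk RNA, fewer cells that express a locus and less RNA per cell cannot be told apart.

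The word intergenic in the usual label was checked against the positions in the table. Of the 72 loci, 37 overlapped no other locus. Of the 35 that did, 13 overlapped a locus with a mean of at least 1 FPKM, and 6 of those overlapped a locus with a protein-coding name. They were LINC00094 (BRD3), LINC00649 (the merged locus of ATP5O and DONSON), LINC00884 (ATP13A3 merged with a clone-named gene), LINC00909 (ZNF407), LINC00894 (CXorf40B) and LINC00852 (the merged locus of GHRLOS and TATDN2). Which gene of a merged locus is overlapped was not checked. LINC00526 and LINC00667 overlapped each other. The sources used here do not say whether counting used the strand, so fragments of such pairs could have been assigned to either locus. The word noncoding does not hold for all members either: in RefSeq 65 of the 72 are lncRNA genes, 6 are protein-coding genes and 1 is a transcribed pseudogene, LINC00694 (C3orf86P).

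Levels were uneven. The mean over the 6 libraries ran between 1.03 and 110.3 FPKM with a median of 4.16 FPKM, against 8.97 FPKM over all 12838 loci and 11.8 FPKM over 10310 protein-coding loci. The 7 members with the highest means held 54.4% of the summed means and the highest 12 held 67.2%. They were LINC00152, LINC00657, LINC00998, LINC00958, LINC00493, LINC01029, LINC00467, LINC00667, LINC01088, LINC00520, LINC00662 and LINC00221. At the threshold, LINC00853 (1.03 FPKM) and LINC01037 (1.04 FPKM) lay just inside, and LINC00205 (0.998 FPKM) and LINC00476 (0.980 FPKM) just outside. In all, 7 members would have fallen below 1 FPKM without their highest library, which are LINC00896, LINC00852, LINC00471, LINC00263, LINC00648, LINC01037 and LINC00853.

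LINC00657, now named NORAD, is a cytosolic lncRNA that is needed for a stable genome. Its locus is a single exon of 5339 bases on chromosome 20, 34633544 to 34638882 on hg19. After knockdown LINC00657 had 55.4, 52.8 and 144 FPKM in whole-cell, nuclear and cytosolic RNA, against 55.2, 50.9 and 157 FPKM in control. It was cytosolic in both conditions, with a nuclear-to-cytosolic ratio of 0.367 after knockdown and 0.324 in control. About 10902 fragments after knockdown and 10761 in control stood behind its cytosolic values, so its counting error is the smallest among the members. Its near-identical copy OVCH1-AS1 was listed at 0 in all 6 libraries.

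Localization is given as the difference of log2(FPKM + 0.1) between nuclear and cytosolic RNA, so that values above 0 are nuclear and small levels are understated. The members' median was -0.31 after knockdown and -0.08 in control, beside -0.47 and -0.44 over all loci. The place of 0 on this scale rests on library scaling: with each library set to the same median, the members' medians were 0.13 after knockdown and 0.32 in control, and those of all loci -0.02 and -0.04. With quantile normalization the members' medians were -0.19 and -0.11. After knockdown 18 of 72 members were at least 2-fold nuclear (25.0%; all loci 14.4%) and 21 at least 2-fold cytosolic (29.2%; all loci 28.4%). In control 21 were at least 2-fold nuclear (29.2%; all loci 16.0%) and 16 at least 2-fold cytosolic (22.2%; all loci 29.1%). These counts were not split by level, and 41 of the 72 members had a mean of 1 to 5 FPKM, against 4340 of 12838 loci. All loci of that mean had higher medians than all loci together, 0.15 after knockdown and 0.26 in control. Without the members listed at 0, 19 of 70 were at least 2-fold cytosolic after knockdown and 19 of 70 at least 2-fold nuclear in control. The counts on both sides depend on the scaling. With equal library medians the cytosolic counts were 12 of 72 after knockdown (all loci 13.3%) and 9 in control (all loci 15.6%). The nuclear counts were then 20 (all loci 20.3%) and 25 (all loci 21.5%). With quantile normalization the cytosolic counts were 12 (all loci 11.5%) and 9 (all loci 13.4%). The nuclear counts were then 12 of 72 (all loci 16.7%) and 16 of 72 (all loci 18.4%). Under that scaling the members' nuclear share after knockdown was no larger than that of all loci. With a pseudocount of 1 the nuclear count in control was 13.

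The more abundant members were the more cytosolic. The 31 members with a mean of at least 5 FPKM had median log2 ratios of -1.02 after knockdown and -0.99 in control, beside -0.69 and -0.70 over all loci of that mean. The 41 members of 1 to 5 FPKM had 0.16 and 0.54, beside 0.15 and 0.26. Over the 70 members above 0 in all libraries, Spearman's rho between mean FPKM and the ratio was -0.57 after knockdown and -0.61 in control, and over all loci -0.44 and -0.45. These are descriptions over loci that share the same 4 libraries, and a mean that includes the cytosolic library is not independent of the ratio. For transcript length over 66 members rho was 0.18 and 0.13, for exons of the longest transcript 0.15 and 0.20, and for GC content -0.18 and -0.11. The 152 loci named as antisense transcripts had medians of -0.22 after knockdown and -0.20 in control.

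**Figure D1:**
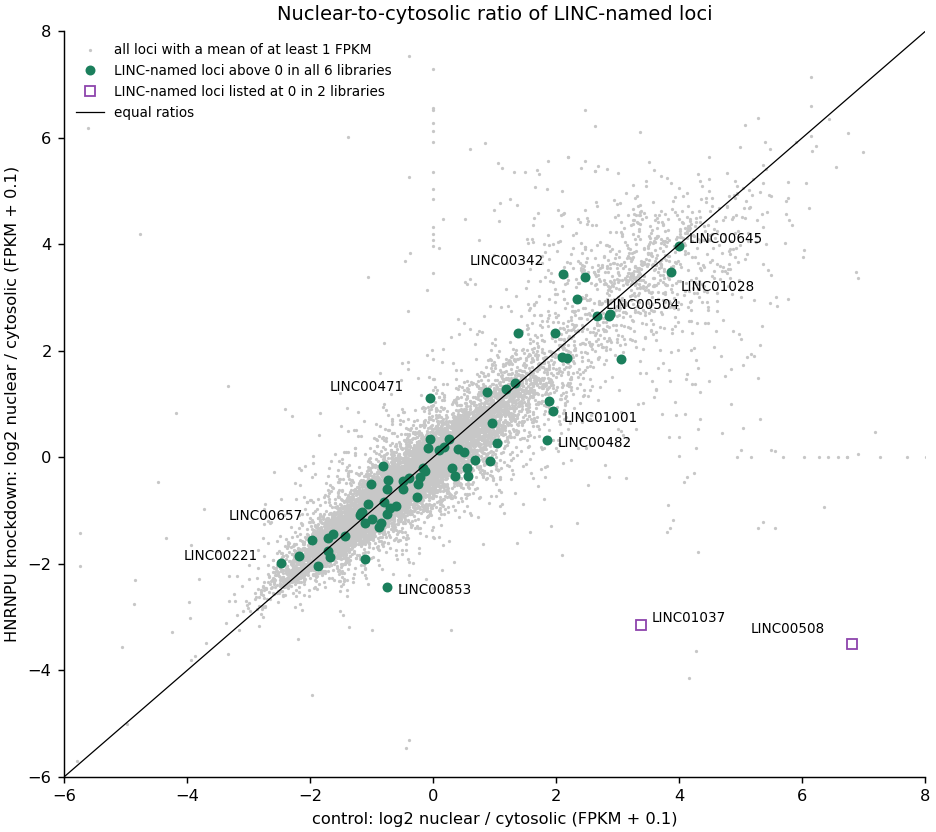
Nuclear-to-cytosolic log2 ratio after HNRNPU knockdown (vertical axis) against control (horizontal axis), for all loci at or above a mean of 1 FPKM (grey), 70 LINC-named loci above 0 in every library (green) and 2 listed at 0 in a pair of libraries (open squares). The green points follow the line of equal ratios (Pearson's r 0.93), and the open squares lie far below it.

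The order of the members was much the same after knockdown as in control. Pearson's r of the ratio was 0.93 over the 70 members above 0 in every library and 0.59 with LINC00508 and LINC01037 added. It was 0.86 over all loci, with those listed at 0 in a library kept. There were 16 members at least 2-fold nuclear in both conditions (all loci 12.6%) and 14 at least 2-fold cytosolic in both (all loci 23.9%). The other 42 were in neither group. These counts were not split by level either.

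Among the nuclear 16 the most abundant was LINC00504, a locus of 417705 bases on chromosome 4. It had 12.3 FPKM after knockdown and 12.9 FPKM in control nuclear RNA, and 1.86 and 1.95 FPKM in the cytosolic fraction. Its nuclear-to-cytosolic ratios were thus 6.58 after knockdown and 6.61 in control, equal within counting error, and its whole-cell levels were 19.2 and 18.9 FPKM. LINC00645 was the most nuclear by the mean of both conditions, with ratios of 27.5 after knockdown and 32.7 in control, but its cytosolic values of 0.122 and 0.0904 FPKM rest on about 4.11 and 2.74 fragments. LINC01028 had 7.61 FPKM after knockdown and 6.67 FPKM in control nuclear RNA, against 0.594 and 0.362 FPKM in the cytosolic fraction, and it overlaps the locus AC002539.1 of 20.1 FPKM.

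Of 14 LINC names on a list of lncRNAs with a described function, 7 were members: LINC00657, LINC00152, LINC00467, LINC00339, LINC00173, LINC00662 and LINC00963. LINC00173, a lncRNA described in granulocyte differentiation, had 2.48 FPKM after knockdown and 3.35 FPKM in control nuclear RNA, and 0.146 and 0.528 FPKM in the cytosolic fraction. LINC01021 (PURPL), a p53-induced RNA that restrains p53, had 3.72 and 3.70 FPKM in the nuclear fraction and 0.655 and 1.35 FPKM in the cytosolic fraction. LINC00085 is now annotated within SPACA6, a gene for a sperm protein needed in fertilization, and was nuclear, with log2 ratios of 2.65 after knockdown and 2.86 in control. LINC00894 (EOLA2-DT), which overlaps the protein-coding CXorf40B locus, had log2 ratios of 2.69 and 2.88. The remaining members of the group were LINC01002, LINC00923, LINC00397, LINC00641, LINC00861, LINC00342, LINC00858, LINC00896 and LINC00852. Of these, LINC01002 had 7.77 FPKM after knockdown and 7.80 FPKM in control nuclear RNA, and the others were at or below 3.17 FPKM in either nuclear library.

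**Figure D2:**
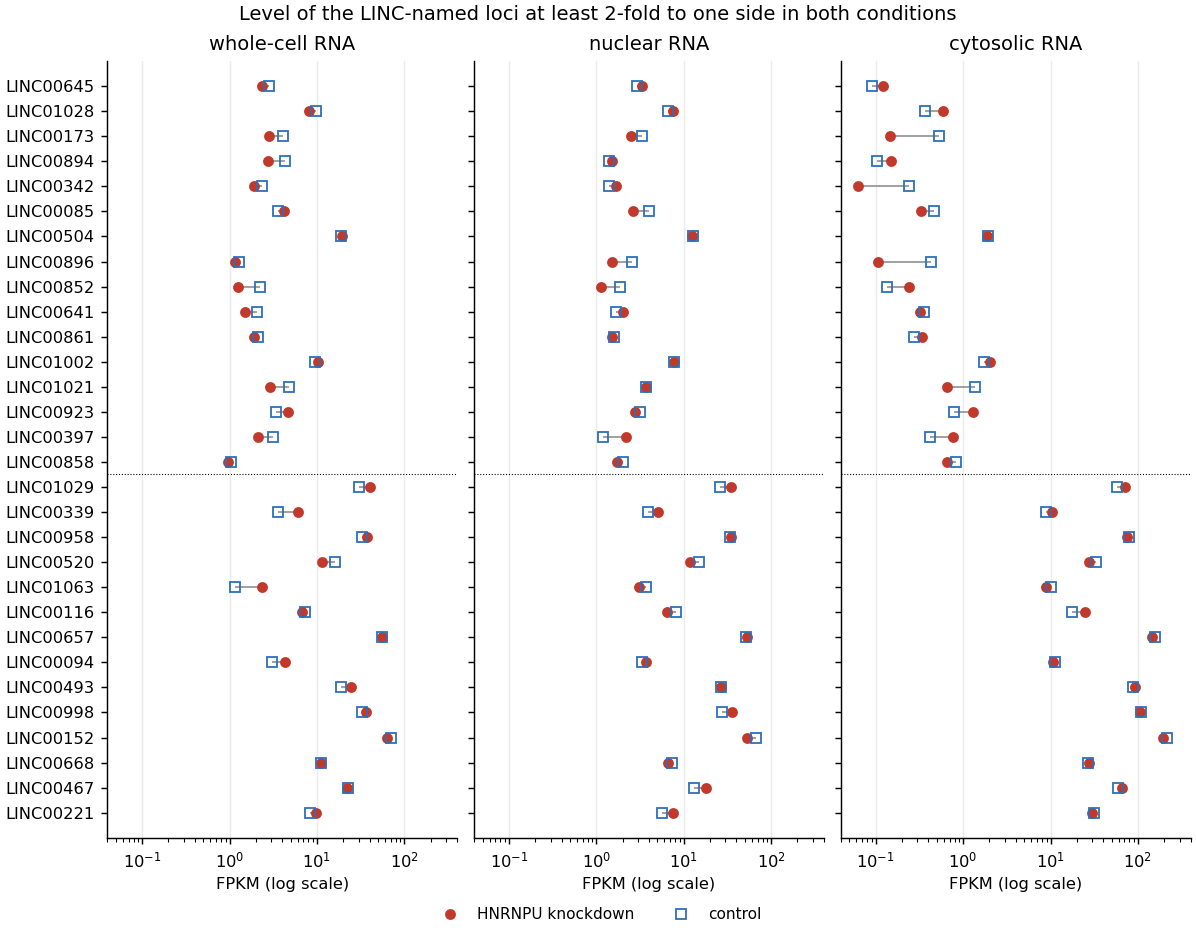
FPKM on log axes in whole-cell, nuclear and cytosolic RNA after HNRNPU knockdown (filled circles) and in control (open squares), for the 16 members at least 2-fold nuclear (above the dotted line) and the 14 at least 2-fold cytosolic (below it) in both conditions. Nuclear members had at most 2.03 FPKM in the cytosolic fraction and cytosolic members at least 8.76 FPKM there.

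The cytosolic 14 held the most abundant members. LINC00152 (CYTOR), a lncRNA linked to cell proliferation in many tumors, had 63.4 FPKM after knockdown and 69.5 FPKM in control whole-cell RNA. It had 53.2 and 66.6 FPKM in the nuclear fraction and 195 and 214 FPKM in the cytosolic fraction, so it was lower after knockdown in each preparation. In GENCODE, 23 of its 38 transcripts match the gene MIR4435-2HG over at least 50% of their length at 95% identity or more, so fragments may have been split between both loci. That locus, listed under the older name MIR4435-1HG, had 65.6 FPKM after knockdown and 64.6 FPKM in control whole-cell RNA, 60.5 and 52.8 FPKM in the nuclear fraction and 141 and 164 FPKM in the cytosolic fraction. The shift (the log2 ratio after knockdown minus that in control) was -0.19 for LINC00152 and 0.41 for its copy, which lie on opposite sides of 0.

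LINC00221 had the lowest ratios by the mean of both conditions, with 7.44 FPKM after knockdown and 5.64 FPKM in control nuclear RNA, against 29.8 and 31.6 FPKM in the cytosolic fraction. LINC00467 had log2 ratios of -1.85 and -2.18, and LINC00668 -2.04 and -1.87. LINC00958 had 34.9 FPKM after knockdown and 34.1 FPKM in control nuclear RNA, and 74.2 and 78.1 FPKM in the cytosolic fraction. LINC01029 had 70.2 FPKM after knockdown and 57.9 FPKM in control cytosolic RNA and was higher after knockdown in all 3 preparations. LINC00662 was near equal in both fractions, with log2 ratios of -0.21 and -0.16.

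Of 10 LINC names on a list of genes since found to encode small proteins, 4 were members, and RefSeq gives a further 2 as protein-coding. SMIM30, listed as LINC00998, is a small membrane protein, and its RNA had 106 FPKM after knockdown and 109 FPKM in control cytosolic RNA, beside 35.9 and 27.6 FPKM in the nuclear fraction. SMIM26 (LINC00493), a small mitochondrial protein, had 92.3 and 88.0 FPKM in the cytosolic fraction, beside 27.0 and 26.9 FPKM in the nuclear fraction. Both were thus at least 2-fold cytosolic in both conditions.

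MTLN (LINC00116) encodes mitoregulin, a small protein of mitochondrial membranes that aids respiration and fatty acid oxidation. It had 24.6 FPKM after knockdown and 17.7 FPKM in control cytosolic RNA, 6.44 and 8.19 FPKM in the nuclear fraction and 6.77 and 7.22 FPKM in whole cells. Its shift was -0.81 with a counting error of 0.21, from opposite differences in nuclear and cytosolic RNA. BRD3OS (LINC00094), which overlaps BRD3, had 10.6 and 11.1 FPKM in the cytosolic fraction and 3.66 and 3.32 FPKM in the nuclear fraction. INAFM2 (LINC00984) had 8.67 and 10.2 FPKM in the cytosolic fraction and 6.08 and 4.96 FPKM in the nuclear fraction. The 6 protein-coding members had median log2 ratios of -1.53 after knockdown and -1.41 in control, with 5 of 6 below 0, the exception being LINC00085. All 10310 protein-coding loci had -0.61 in both, with 24.8% above 0 after knockdown and 26.7% in control, so most lay below 0 as these members did.

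The shift was small for most members. Its median was -0.11, beside 0.00 over all loci, with 43 members below 0 (toward the cytosol) and 29 above. The sign of the members' median was the same with equal library medians (-0.07) and with quantile normalization (-0.04). The 95% interval of that median over loci ran from -0.21 to 0.02. Its loci share the same 4 libraries, so it does not measure spread between cultures. With no minimum mean, the median over 267 LINC loci was 0.00. With 1 library per group, a direction of the median shift is not established. The median shift was -0.05 for the 31 members of at least 5 FPKM and -0.20 for the 41 of 1 to 5 FPKM, beside 0.01 and -0.03 over all loci of those means. Over the 6 protein-coding members it was 0.07.

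A shift of at least 2-fold toward the cytosol was seen in 7 of 72 members (9.72%; all loci 3.82%), and in 5 of 70 without the members listed at 0. Without the members that passed the minimum mean only through their highest library, it was seen in 4 of 65. A shift of at least 2-fold toward the nucleus was seen in 2 (2.78%; all loci 3.28%). Level matters to both counts. At 1 to 5 FPKM, 5 of 41 members were shifted to the cytosol (4 of 40 without LINC01037; all loci 9.72%) and 2 to the nucleus (all loci 8.59%). At 5 FPKM or more, 2 of 31 were shifted to the cytosol (1 of 30 without LINC00508; all loci 0.812%), which are LINC01001 and LINC00508, and 0 to the nucleus (all loci 0.565%).

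Counting error was estimated for 66 members from the FPKM that 1 fragment is worth in each library and from transcript lengths, and covers counting only. In this paragraph, all loci means the 10421 loci with such an estimate. Of these, 7921 were at 5 FPKM or more and 2500 at 1 to 5 FPKM. The median counting error was 0.20 (log2) for members of at least 5 FPKM and 0.51 for those of 1 to 5 FPKM. A shift beyond 1.96 counting errors was seen in 10 of 66 members toward the cytosol (15.2%; all loci 14.0%) and in 5 toward the nucleus (7.58%; all loci 14.7%). At 5 FPKM or more these were 5 of 28 toward the cytosol (all loci 14.6%) and 5 of 28 toward the nucleus (all loci 16.6%). At 1 to 5 FPKM they were 5 of 38 toward the cytosol (all loci 11.9%) and 0 toward the nucleus (all loci 8.84%). The 10 were LINC00152, LINC00667, LINC01088, LINC00116, LINC01001, LINC00534, LINC00630, LINC00884, LINC00839 and LINC00482. The 5 were LINC00657 (0.18), LINC00998 (0.42), LINC00467 (0.33), LINC00221 (0.48) and LINC00984 (0.52), all cytosolic in both conditions.

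**Figure D3:**
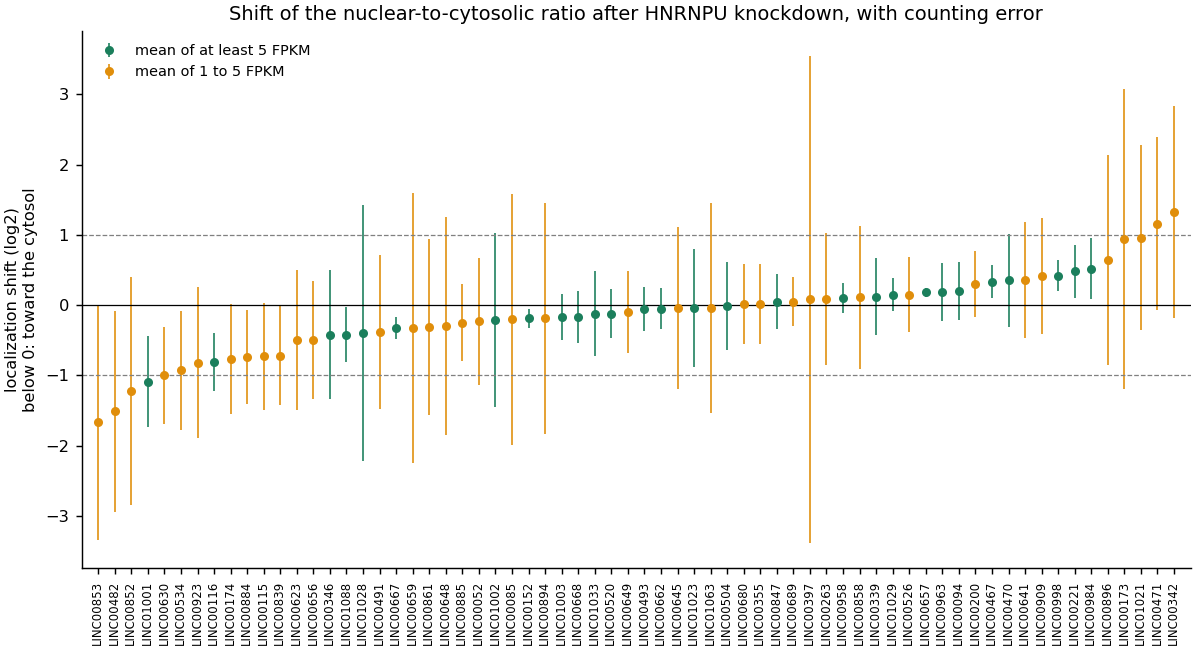
Localization shift (log2 nuclear-to-cytosolic ratio after HNRNPU knockdown minus control) of the 66 LINC-named loci with an estimated counting error, in order of shift; bars are 1.96 counting errors and dashed lines mark 2-fold. The median counting error is larger for loci at 1 to 5 FPKM (orange, 0.51) than for loci at 5 FPKM or more (green, 0.20). Bar lengths overlap between both colors, and most orange bars cross 0.

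The lowest shift with values above 0 in every library was that of LINC00853, at -1.67. It had 0.294 FPKM after knockdown and 1.07 FPKM in control nuclear RNA, 2.02 and 1.89 FPKM in the cytosolic fraction, and 0.492 and 0.400 FPKM in whole cells. About 5.07 and 9.18 fragments stood behind the nuclear values, and the shift was 1.95 times its counting error. LINC00482 followed with -1.51. It had 1.40 FPKM after knockdown and 0.205 FPKM in control cytosolic RNA, from about 21.1 and 2.80 fragments, beside 1.77 and 0.989 FPKM in the nuclear fraction. Its whole-cell levels, which did not enter the shift, were 1.58 and 1.61 FPKM. Its shift was -0.67 with quantile normalization and -0.51 with a pseudocount of 1, both below 2-fold, and that of LINC00853 was -0.74 with a pseudocount of 1.

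LINC01001 had a shift of -1.09 at a higher level. It had 5.74 FPKM after knockdown and 6.69 FPKM in control nuclear RNA, and 3.11 and 1.66 FPKM in the cytosolic fraction, from about 63.5 and 30.6 cytosolic fragments. The shift was 3.29 times its counting error, and it was -0.85 with quantile normalization and -0.82 with a pseudocount of 1, below 2-fold. LINC01001 and LINC01002 are near-identical to each other and to several other genes, so fragments may have been divided among them. LINC01002 had 2.03 FPKM after knockdown and 1.75 FPKM in control cytosolic RNA and a shift of -0.21.

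LINC00630, on chromosome X, had 4.46 FPKM after knockdown and 2.49 FPKM in control cytosolic RNA. Its nuclear values were 4.20 and 4.79 FPKM and its whole-cell values 4.07 and 4.06 FPKM. Its ratio was thus near 1 after knockdown (0.942) and nuclear in control (1.92), a shift toward the cytosol of 2.86 times its counting error. That shift fell short of 2-fold with equal library medians (-0.96), with quantile normalization (-0.82) and with a pseudocount of 1 (-0.80). LINC00534 had a shift of -0.93, with 5.59 and 3.54 FPKM in the cytosolic fraction and 4.32 and 5.31 FPKM in the nuclear fraction. LINC00852, which overlaps the merged locus of GHRLOS and TATDN2, had a shift of -1.22, or 1.46 times its counting error. It had 0.243 FPKM after knockdown and 0.134 FPKM in control cytosolic RNA, from about 3.98 and 1.99 fragments. With a pseudocount of 1 its shift was -0.55.

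Toward the nucleus, LINC00342 had the highest shift, 1.33. It had 0.0626 FPKM after knockdown and 0.243 FPKM in control cytosolic RNA, from about 1.19 and 4.16 fragments, and 1.66 and 1.38 FPKM in the nuclear fraction. LINC00471 had a shift of 1.16, with 0.570 and 1.05 FPKM in the cytosolic fraction and 1.34 and 1.01 FPKM in the nuclear fraction. LINC01021 (0.96), LINC00173 (0.94) and LINC00694 (0.67) completed the 5 highest. With a pseudocount of 1 the shift of LINC00342 was 0.39 and that of LINC00471 was 0.60, both below 2-fold. None of the 4 with an estimated counting error passed 1.96 times it.

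The side of equal FPKM differed between conditions for 11 members (15.3%; all loci 9.81%). Of these, 8 were nuclear in control and cytosolic after knockdown, and 3 were cytosolic in control and nuclear after knockdown. The share of all loci was not split by direction, so no lean is drawn from these counts. The 8 include LINC00508 and LINC01037, both listed at 0 in libraries, and LINC00534, LINC00630, LINC00884 (ATP13A3-DT), LINC00115, LINC00839 and LINC00656. The 3 are LINC00999, LINC00909 (ZNF407-AS1) and LINC00471. After knockdown LINC00115, LINC00630, LINC00656 and LINC00884 had log2 ratios of -0.06, -0.08, -0.20 and -0.21. Their counting errors were larger in size, at 0.24, 0.21, 0.26 and 0.23. In control LINC00909 and LINC00471 had -0.06 and -0.05, with counting errors of 0.28 and 0.45. LINC00534 and LINC00839 each had -0.36 after knockdown, beyond counting errors of 0.26 and 0.24. LINC00508, LINC01037 and LINC00999 had no such estimate. The side depends on library scaling, and the lists were not drawn under another one.

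LINC00508 and LINC01037 were the members listed at 0, each in knockdown whole-cell and control cytosolic RNA. LINC00508 had 0, 4.63 and 53.6 FPKM in whole-cell, nuclear and cytosolic RNA after knockdown, against 9.60, 11.1 and 0 FPKM in control. The 3 preparations thus do not share a direction, and no fold is given against a library at 0. Its only GENCODE transcript has 194 bases in 2 exons, which is below the 220 bases that the depth estimate takes off a length, so its counting error could not be estimated. The transcript, from GENCODE release 29 (GRCh38), is printed whole because its length bears on how an FPKM value is made:
LINC00508: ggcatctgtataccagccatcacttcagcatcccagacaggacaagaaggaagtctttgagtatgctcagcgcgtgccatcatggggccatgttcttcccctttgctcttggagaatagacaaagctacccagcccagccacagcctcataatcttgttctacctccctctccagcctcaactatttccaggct
LINC01037 had 0, 0.429 and 4.64 FPKM in whole-cell, nuclear and cytosolic RNA after knockdown, against 0.228, 0.933 and 0 FPKM in control. Only its knockdown cytosolic library took it past the minimum mean. It had no transcript in that release.

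Levels after knockdown differed little in whole-cell RNA, which did not enter the shift. The members' median log2 ratio of knockdown to control was 0.03, beside 0.06 over all loci, and it was -0.03 with equal library medians. The summed level of the 72 members was 589 FPKM after knockdown and 580.1 FPKM in control whole-cell RNA. No member was at least 2-fold higher (all loci 1.36%), and 2 were at least 2-fold lower (all loci 1.29%), which are LINC00508 and LINC01037, both listed at 0 after knockdown. Beyond 1.96 counting errors, 7 of 66 members were higher (10.6%; all loci 23.1%) and 7 lower (10.6%; all loci 8.81%). The last shares of all loci are over the 10494 loci with an estimated counting error.

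Among the higher ones was LINC00339, a lncRNA next to CDC42. It had 6.08 FPKM after knockdown and 3.60 FPKM in control whole-cell RNA, 5.03 and 3.94 FPKM in the nuclear fraction and 10.5 and 8.97 FPKM in the cytosolic fraction. LINC00963 had 8.13 and 5.64 FPKM in whole cells, 7.94 and 6.02 FPKM in the nuclear fraction and 14.6 and 12.6 FPKM in the cytosolic fraction. LINC01029 had 40.2 and 30.5 FPKM in whole cells and 34.6 and 25.8 FPKM in the nuclear fraction. For these 3 members every preparation was higher after knockdown, by log2 ratios of 0.20 to 0.74.

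The highest whole-cell ratio, 0.96, was that of LINC01063, with 2.35 FPKM after knockdown and 1.16 FPKM in control. It was past 2-fold with quantile normalization (1.19) and with a pseudocount of 0.01 (1.02). It rests on about 5.63 and 3.41 fragments, and nuclear and cytosolic RNA had log2 ratios of -0.25 and -0.22. LINC00694 had 1.26 and 0.770 FPKM in whole cells, 1.66 and 1.12 FPKM in the nuclear fraction and 1.87 and 2.06 FPKM in the cytosolic fraction. Neither pattern was shared by the 3 preparations.

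At the lower end, LINC00852 had 1.24 FPKM after knockdown and 2.21 FPKM in control whole-cell RNA. LINC01021 had 2.89 and 4.77 FPKM, LINC00894 2.75 and 4.29 FPKM, and LINC00397 2.13 and 3.13 FPKM in whole cells. In nuclear RNA their log2 ratios were -0.67, 0.01, 0.11 and 0.81 in that order, so only LINC00852 was lower there too. LINC00520 was lower in each preparation, with 11.4 FPKM after knockdown and 16.3 FPKM in control whole-cell RNA, 11.8 and 15.1 FPKM in the nuclear fraction and 27.8 and 32.8 FPKM in the cytosolic fraction.

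In nuclear RNA the members' median log2 ratio was -0.05, beside 0.03 over all loci. By the rule on log2(FPKM + 0.1), no member was at least 2-fold higher there (all loci 1.04%). With a pseudocount of 0.01 it was 1 member, and with quantile normalization 2. At least 2-fold lower were 2 (all loci 1.50%), LINC00508 and LINC00853, or 1 of 70 without the members listed at 0. In cytosolic RNA the median was 0.09, beside 0.03. There 4 members were at least 2-fold higher (5.56%; all loci 2.62%), LINC00508, LINC01037, LINC00482 and LINC00659, or 2 of 70 without the members listed at 0 in control. A further 3 were at least 2-fold lower (4.17%; all loci 2.63%), LINC00896, LINC00173 and LINC00342, and these were 1 with quantile normalization and 0 with a pseudocount of 1. Their knockdown cytosolic values rest on about 1.78, 1.08 and 1.19 fragments, and none of the 3 ratios passed 1.96 counting errors. Of the higher members with an estimate, LINC00482 passed it (2.29, counting error 0.65) and LINC00659 did not (1.28, counting error 0.69). LINC00659 had 3.04 FPKM after knockdown and 1.20 FPKM in control cytosolic RNA, and 1.40 and 0.670 FPKM in the nuclear fraction. Its nuclear values differ 2.09-fold as they stand, and with 0.1 added the log2 ratio was 0.96, just below the rule. The summed cytosolic level was 1233 FPKM after knockdown and 1169 FPKM in control, of which LINC00508 made 53.6 and 0 FPKM.

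**Figure D4:**
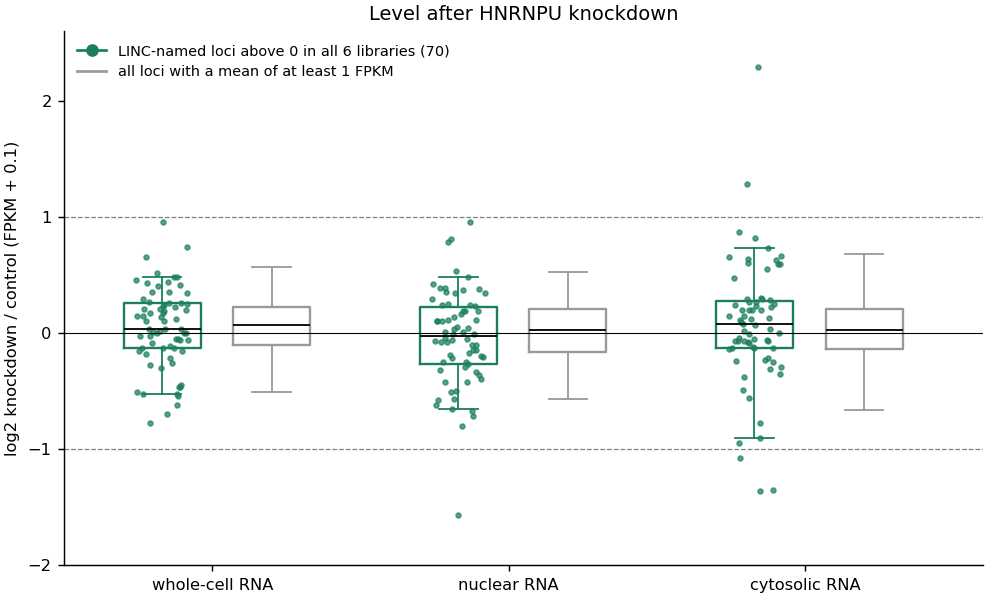
Log2 ratio of knockdown to control in whole-cell, nuclear and cytosolic RNA for the 70 LINC-named loci above 0 in every library (green points and boxes) and all loci at or above a mean of 1 FPKM (grey boxes). The grey boxes include loci listed at 0 in a library. Boxes span the quartiles with the median as a line, whiskers the 5th to 95th percentile, and dashed lines mark 2-fold; the 3 green medians lie between -0.03 and 0.08.

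Over the 70 members above 0 in every library, 10 were higher after knockdown in all 3 preparations (14.3%; all loci 24.6%) and 8 were lower in all 3 (11.4%; all loci 13.2%). The shares of all loci include loci listed at 0 in a library. The 10 were LINC00493, LINC01029, LINC00963, LINC00339, LINC00938, LINC00346 (PRECSIT), LINC00649, LINC00680, LINC00885 and LINC00656. The 8 were LINC00152, LINC00520, LINC01033, LINC00355, LINC00173, LINC00909, LINC00858 and LINC00896. No member differed by 1.5-fold or more in 1 direction throughout the 3 preparations, where 0.343% of all loci were higher and 0.234% lower by that size.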

How the data were processed

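Whole-cell, nuclear and cytosolic RNA of K562 cells after HNRNPU knockdown and in control was sequenced from strand-specific libraries after ribosomal RNA depletion, per the labels' protocols, with 1 library in each of 6 groups. The authors deposited FPKM values per locus. No header gives the unit, which was taken from the values and the tools. Per the submitters' processing notes, TopHat2 2.0.13, Cuffdiff 2.2.1, CASAVA and FastQC were used and hg19 and mm9 are named as builds, without roles. The sources used here do not give the library scaling, the annotation or the strand used in counting. Coordinates are of hg19, printed from base 1.

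Members and lists were chosen with earlier results of these data known. The text names members by rank of mean, shift, whole-cell ratio and localization, members at 0, those next to the minimum, and those on lists of small proteins and described functions. Members that a count singles out beyond that, and the copy MIR4435-1HG, were named after their values were seen. Ratios are differences of log2(FPKM + 0.1), and 2-fold is a log2 value of 1. Depth was estimated from the step that a single fragment makes in low values of loci with 1 exon, whose length was reduced by 220 bases: 1 FPKM over 1 kilobase stood for about 18.7 (knockdown) and 23.1 (control) fragments in whole-cell, 39.1 and 19.4 in nuclear and 14.8 and 13.4 in cytosolic RNA. Fragments per locus used the mean GENCODE release 29 transcript length, at most the length of the locus. Names and types came from RefSeq (72 of 72 matched, 15 of them renamed), and copies from BLAST 2.17.0 (95% identity over 50% of at least 50% of a member's transcripts; 6 members). Calculations used matplotlib 3.10.9, pandas 2.3.3, numpy 2.4.6 and scipy 1.17.1 in Python 3.11.15. The estimate of the step and the recovery of the median shift were tested on simulated data, and the counting error was not. Alternatives were other pseudocounts, minimum means, scalings and subsets of members.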

Additional observations from a re-analysis of the deposited data

Results flagged for a closer look

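LINC00508 had 4.63 FPKM after knockdown and 11.1 FPKM in control nuclear RNA, but 53.6 FPKM after knockdown in cytosolic RNA, where it was listed at 0 in control. It was thus lower after knockdown in nuclear RNA and higher in cytosolic RNA, from 1 library each, and this difference was not tested.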

How the results depend on the processing

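Each median and count was recomputed under other settings, 2 of which were chosen after seeing the data: leaving out members that overlap a locus of at least 1 FPKM, and leaving out members below 1 FPKM without their highest library. Of 66 medians recomputed, 64 stayed within the 95% interval of the median over loci. The exceptions were the localization medians at a minimum mean of 5 FPKM, -1.02 after knockdown and -0.99 in control, where fewer loci enter. For localization the interval was wide, from -0.59 to 0.14 after knockdown and from -0.50 to 0.50 in control, so a change of sign can lie within it. It is taken over loci that share the same libraries, so it does not measure spread between cultures. Of 132 counts, 87 stayed within 1.5 times. Counts below are of 72 loci unless the setting changes the set. They are of 31 loci at a minimum of 5 FPKM and of 267 with no minimum. Without the members listed at 0 they are of 70, and without those that rest on their highest library of 65. Shares of all loci under these settings are not given here, so the changed counts have no background. The 2 members shifted at least 2-fold to the nucleus became 5 with a pseudocount of 0.01, 0 with a pseudocount of 1, 0 at a minimum of 5 FPKM, 29 of 267 with no minimum and 1 without the members that rest on their highest library. The 7 shifted to the cytosol became 2 with a pseudocount of 1, 2 at a minimum of 5 FPKM, 36 with no minimum, 4 with quantile normalization and 4 without the members that rest on their highest library. In whole-cell RNA, the count of 0 at least 2-fold higher became 1 with a pseudocount of 0.01, 14 with no minimum and 1 with quantile normalization. The 2 at least 2-fold lower became 1 with a pseudocount of 1, 1 at a minimum of 5 FPKM, 15 with no minimum, 0 without the members listed at 0 and 1 without those that rest on their highest library. The causes were not tested beyond the loci each setting adds or removes. With equal library medians, the localization medians changed sign, to 0.13 after knockdown and 0.32 in control. Counting error of 0.51 log2 units at 1 to 5 FPKM limits what single members show, and spread between cultures is unknown. No paired analysis was possible because the groups share fewer than 2 replicate numbers. A fit of condition with the preparation as a term was not run.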
